A study of Mus musculus with 23 samples.

Results

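The protocadherins are the largest group of the cadherin superfamily of calcium-dependent adhesion proteins. All genes whose mouse symbol begins with Pcdh and a number, or with Pcdha, Pcdhb or Pcdhg, were taken from a count table of 53402 Ensembl gene identifiers, 53316 of which had a symbol. There were 70 such genes. The 3 clusters on chromosome 18 held 14 (Pcdha), 22 (Pcdhb) and 22 (Pcdhg) of them, and 12 lay outside the clusters. A filter on low counts, which was applied to all genes, left 46 protocadherins for testing. These were 11 of the 12 outside the clusters, none of the Pcdha genes, 14 of the Pcdhb genes and 21 of the Pcdhg genes. The 24 others are described by their counts alone.

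In a protocadherin cluster each variable exon has its own promoter and encodes the whole extracellular part of a protein. In the Pcdha and Pcdhg clusters that exon is spliced to constant exons shared by the cluster, which encode a common cytoplasmic end, whereas Pcdhb genes are usually a single exon. In neurons the promoters are chosen in a largely random way, with CTCF and cohesin joining promoter and enhancer and DNA methylation holding other promoters silent, and the resulting combination of surface proteins serves self-recognition. The genes outside the clusters have their own regulation. Pcdh7, Pcdh10, Pcdh17 and Pcdh19 are nervous system adhesion molecules, Pcdh12 is known from endothelium and placenta, and Pcdh15 is part of the tip link of inner ear hair cells. Medullary thymic epithelial cells (mTECs) transcribe many genes of peripheral tissues, nervous system genes included, so that developing T cells meet their peptides. Many such genes depend on Aire, a chromatin-associated protein of these cells.

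The 23 libraries were made from mTECs of C57BL/6 mice, sorted as cells without CD45 and Ly51 on their surface and with EpCAM, and divided by MHC class II into a high gate (mTEChi) and a low gate (mTEClo). There were 8 libraries of WT mTEClo (5 male and 3 female, 5 from mice of 4 weeks and 3 of 5 weeks) and 7 of WT mTEChi (5 male and 2 female, 2 of 4 weeks and 5 of 5 weeks). Each of the Aire knockout (KO) groups, labelled AireKO, had 4 libraries from male mice, 2 of 5 weeks and 2 of 6 weeks. The labels do not describe the AireKO allele, and they do not say whether libraries came from separate animals, so p-values measure the spread between these libraries, which may be technical. Sorted cells were sequenced in bulk, so fewer cells expressing a gene and less RNA of it per cell cannot be told apart.

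Library totals ranged from 1602125 to 3938588 counts. Values below are CPM, that is, counts scaled to the size of each library. Aire itself was at 753 to 921 CPM in WT mTEChi and at 39.0, 39.3, 21.6 and 17.1 CPM in KO mTEChi. In mTEClo it was at 19.6 to 128 CPM in WT and at 7.58, 3.13, 0 and 0.243 CPM in KO. Aire RNA was therefore low but not at 0 in most libraries labelled AireKO. The MHC class II gene H2-Aa was at 546 to 812 CPM in WT mTEChi and at 275 to 483 CPM in WT mTEClo, but at 302 to 617 CPM in KO mTEClo, which overlaps the mTEChi gate. In 6 libraries, all 4 of KO mTEChi and KO mTEClo replicates 3 and 4, the mitochondrially encoded genes had no counts. The other 17 had 0.261% to 0.527% of their counts there. In mTEChi this division and the genotype cannot be told apart. In mTEClo it coincides with the age of the KO mice, since the 2 libraries without mitochondrial counts are those of 6 weeks.

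The protocadherins with the clearest response to Aire loss lay outside the clusters, and RefSeq promoter sequences (build GRCm38.p6) were at hand for 9 of them. The 250 bases before the RefSeq start are shown in full for 4 genes. Pcdh9 and Pcdh19 are shown because both fell in KO mTEChi. Pcdh10 and Pcdh17 fell as well and are not shown. Pcdh15 and Pcdh8 are shown because their level divided the KO mTEClo libraries. Capitals mark each CG dinucleotide, the site of DNA methylation, and each TATAAA, the core of a TATA box. All 4 are written 5′ to 3′ on the gene's own strand.
Pcdh9 (chr14:93890680-93890929, minus strand): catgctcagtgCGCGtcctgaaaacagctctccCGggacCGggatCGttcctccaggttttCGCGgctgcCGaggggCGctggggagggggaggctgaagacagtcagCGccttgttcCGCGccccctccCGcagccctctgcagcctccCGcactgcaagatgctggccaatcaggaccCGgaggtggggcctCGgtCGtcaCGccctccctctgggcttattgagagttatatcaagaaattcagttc
Pcdh19 (chrX:133688994-133689243, minus strand): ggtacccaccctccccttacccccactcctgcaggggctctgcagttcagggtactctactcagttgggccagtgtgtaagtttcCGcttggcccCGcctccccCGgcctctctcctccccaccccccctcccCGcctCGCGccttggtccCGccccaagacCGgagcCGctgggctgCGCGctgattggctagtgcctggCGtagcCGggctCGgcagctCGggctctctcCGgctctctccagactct
Pcdh15 (chr10:73821617-73821866, plus strand): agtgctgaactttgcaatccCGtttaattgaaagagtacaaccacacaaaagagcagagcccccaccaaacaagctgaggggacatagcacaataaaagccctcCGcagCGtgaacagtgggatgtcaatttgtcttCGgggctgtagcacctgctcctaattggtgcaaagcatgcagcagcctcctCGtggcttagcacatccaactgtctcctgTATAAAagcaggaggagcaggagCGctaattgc
Pcdh8 (chr14:79771313-79771562, minus strand): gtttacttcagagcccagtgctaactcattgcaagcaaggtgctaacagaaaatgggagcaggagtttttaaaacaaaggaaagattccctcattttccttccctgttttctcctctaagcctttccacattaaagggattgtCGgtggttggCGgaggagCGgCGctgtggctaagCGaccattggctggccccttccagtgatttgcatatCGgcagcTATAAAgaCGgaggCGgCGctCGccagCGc

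The Pcdh9 and Pcdh19 sequences held 18 and 16 CG dinucleotides and no TATAAA. Those of Pcdh15 and Pcdh8 held 6 and 11 CG dinucleotides, and each had 1 TATAAA near its 3′ end. None of the other 5 protocadherin stretches (Pcdh7, Pcdh10, Pcdh17, Pcdh18 and Pcdh20) held TATAAA on either strand. Annotated exon covers all 250 bases of the Pcdh7 stretch and 113 of those of Pcdh10. Over 32851 mouse promoters of the same length, the median was 6 CG dinucleotides and 12.4% held TATAAA on either strand. The Pcdh15 start used here lies inside the gene model of the annotation used for exons, which starts at base 73099342. A match of letters describes the sequence and not the binding of a factor.

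In mTEChi, 23 of the 46 protocadherins tested differed between KO and WT, with 11 lower and 12 higher in KO (edgeR quasi-likelihood test, adjusted p under 0.05 over all genes). Of all 19310 genes tested, 28.0% were lower and 25.7% higher (53.7% in either direction), so the total was close to the background. The direction divided by location. Outside the clusters 4 of 11 fell and 2 rose, among the Pcdhb genes 7 of 14 fell and none rose, and among the Pcdhg genes 10 of 21 rose and none fell. The median log2 change was -0.92 over the 14 Pcdhb genes and 0.43 over the 21 Pcdhg genes, against -0.01 over all genes. The count of protocadherins called was 15, with 7 lower and 8 higher, when a term for the 6 libraries without mitochondrial counts was added. Under that term the calls over all genes fell as well, to 3446 lower and 3426 higher of 19310. All KO mTEChi libraries and no WT library lack these counts, so the term is estimated from the KO mTEClo libraries alone. It therefore cannot check a difference between the genotypes within mTEChi.

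Pcdh10, an adhesion molecule that recruits actin regulators through its cytoplasmic tail, had the lowest p of the genes that fell. Its level in WT mTEChi ranged from 49.2 to 78.5 CPM with a median of 58.9, whereas the KO libraries had 28.1, 22.1, 16.4 and 12.9 CPM. The KO libraries were all below the WT libraries. The log2 change was -1.63 ± 0.22 (SE, edgeR adjusted p = 4.8e-07), a 3.09-fold difference. In mTEClo Pcdh10 was low in both genotypes, at 4.89 ± 2.26 CPM (SD, n = 8) in WT and 5.26 ± 1.83 CPM (SD, n = 4) in KO.

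Pcdh19, the X-linked protocadherin whose loss causes an epilepsy in women, fell without overlap too. WT mTEChi libraries had 32.0 to 52.9 CPM (median 43.9), and KO libraries had 21.5, 11.05, 17.5 and 19.2 CPM. The log2 change was -1.36 ± 0.19 (SE, edgeR adjusted p = 5.9e-07). Pcdh19 differed from Pcdh10 in its distribution between the gates of WT mice. It was 1.46-fold lower in mTEChi than in mTEClo (log2 -0.54, edgeR adjusted p = 0.00042), while Pcdh10 was 12.3-fold higher in mTEChi (log2 3.62, edgeR adjusted p = 7.8e-16).

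Pcdh9, a long gene of the nervous system, had 7.43 to 13.9 CPM (median 12.99) in WT mTEChi. The KO libraries had 6.14, 4.09, 3.42 and 4.60 CPM, again all below WT. The log2 change was -1.22 ± 0.37 (SE, edgeR adjusted p = 0.0062), and with a term for the 6 libraries it was -1.13 with an adjusted p of 0.72. Pcdh9 was nearly absent from mTEClo, with 23 counts over 8 WT libraries and 3 over 4 KO libraries. The term for the 6 libraries rests on those KO libraries, and for Pcdh9 it had an SE of 1.82. Pcdh17, a synaptic adhesion molecule, changed least of those that passed. Its KO libraries (154, 173, 174 and 176 CPM) lay just below the WT range of 177 to 209 CPM, with a log2 change of -0.24 ± 0.095 (SE, edgeR adjusted p = 0.038). That call was lost without any of 4 libraries in turn (WT mTEChi replicate 1 and KO mTEChi replicates 1, 2 and 4), with an adjusted p between 0.052 and 0.14. It was also lost with an age term (log2 -0.14, adjusted p = 0.33) and with no sex term (adjusted p = 0.094). With the term for the 6 libraries the log2 change was -0.09 (adjusted p = 0.73).

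Pcdh11x, the X-linked relative of Pcdh9, was below the filter. It had 30 counts in WT mTEChi with some in each of the 7 libraries, and was at 0 in all 4 KO mTEChi libraries. With 3 counts over the KO group as the floor, it was at least 5.39-fold higher in WT, a bound that covers counting error only. It was also at 0 in the 4 KO mTEClo libraries, against 6 counts in 4 of 8 WT mTEClo libraries.

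Pcdh12, known as an endothelial protocadherin, rose the most. The WT mTEChi libraries had 15.4 to 24.8 CPM (median 19.0) and the KO libraries 53.5, 67.9, 63.0 and 51.4 CPM. The groups were far apart, with a log2 change of 1.59 ± 0.19 (SE, edgeR adjusted p = 9.9e-08), or 3.01-fold. Between the gates of WT mice it also had the largest rise of the protocadherins tested, 20.7-fold higher in mTEChi (log2 4.37, edgeR adjusted p = 3.3e-15), against 0.913 ± 0.714 CPM (SD, n = 8) in mTEClo.

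The endothelial marker list of 11 genes did not move as 1 block beside Pcdh12. Of its 8 tested genes 4 were lower and 2 higher in KO mTEChi, against 28.0% and 25.7% of all genes. The junction gene Cdh5 was at 6.53 ± 1.73 CPM (SD, n = 7) in WT and 0.426 ± 0.359 CPM (SD, n = 4) in KO, and Plvap was at 22.0 ± 7.16 CPM in WT mTEChi and at 0.685 ± 0.464 CPM in KO. Tie1 and Sox17 were at 0 in KO mTEChi. Erg, an endothelial transcription factor, was at 19.4 ± 3.5 CPM in WT mTEChi and at 57.1 ± 11.1 CPM in KO. The summed level of the list was 186 to 294 CPM in WT mTEChi and 288 to 340 CPM in KO mTEChi.

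Pcdh7, the most abundant protocadherin per kb of unshared exon in mTEChi (25.6 CPM per kb in WT), rose in KO mTEChi with very little spread. WT libraries had 195 to 234 CPM (median 211) and KO libraries 382, 372, 364 and 396 CPM (log2 0.81 ± 0.071, SE, edgeR adjusted p = 2.6e-10). In the 3 other groups it was nearly level, at 203 ± 13.6 CPM (SD, n = 8) in WT mTEClo, 206 ± 5.94 CPM (SD, n = 4) in KO mTEClo and 214 ± 12.1 CPM (SD, n = 7) in WT mTEChi. The difference between the gates of WT mice was 0.07 ± 0.059 on the log2 scale (edgeR adjusted p = 0.26). With RLE or upper quartile factors or with DESeq2 this small difference passed the threshold.

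**Figure D1:**
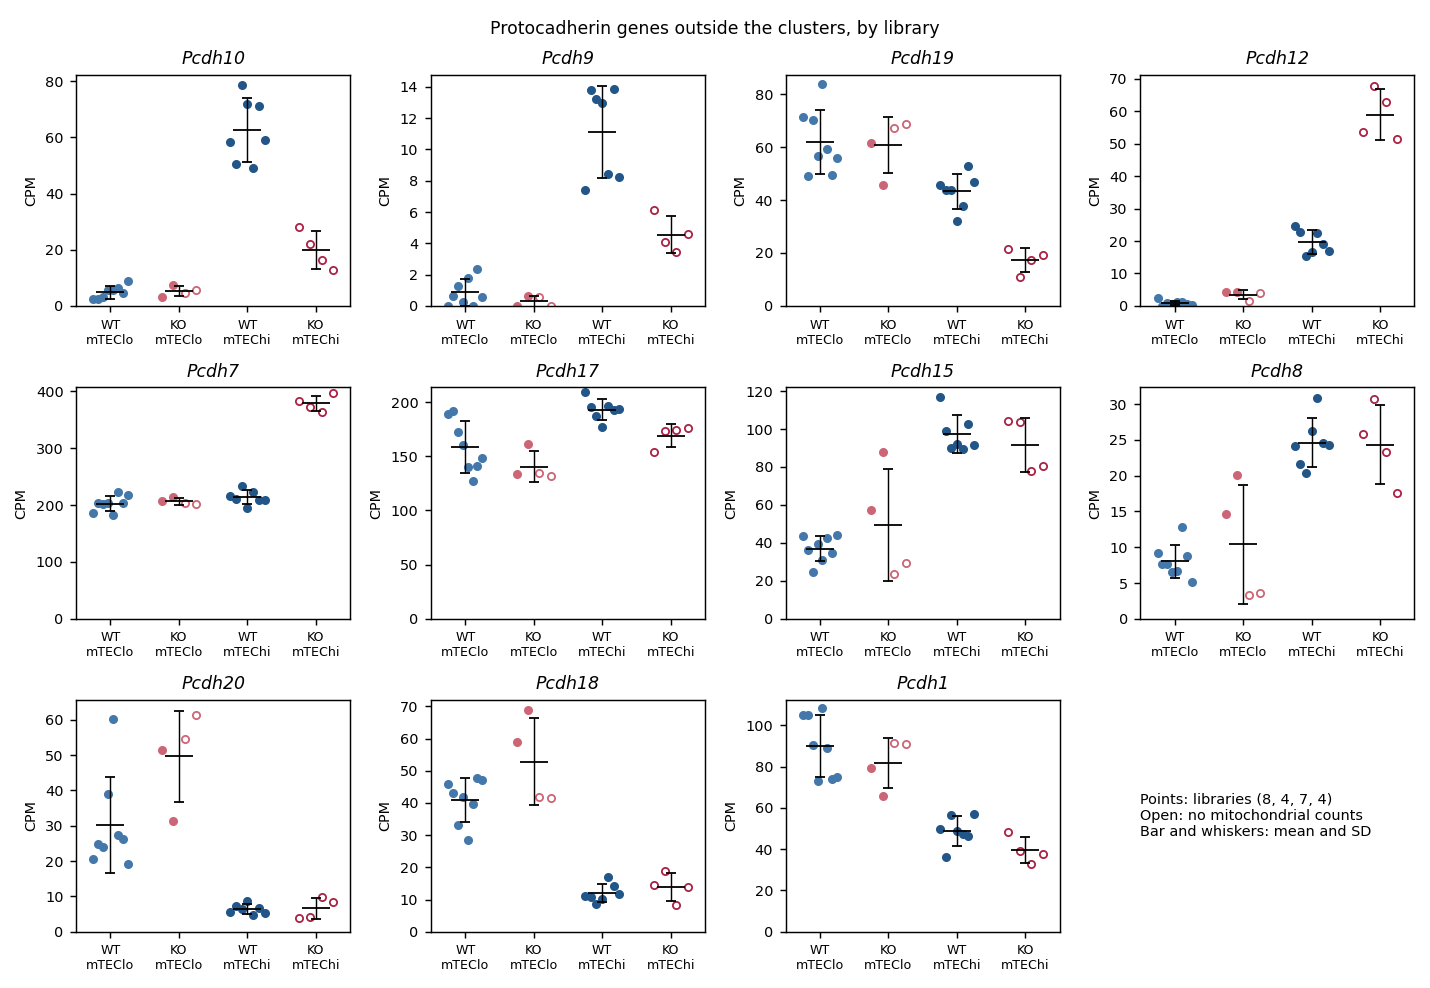
CPM of the 11 tested protocadherins outside the clusters, 1 panel each, by group. Points are libraries, open where no mitochondrial counts were present, and bars with whiskers are the mean and SD of 8, 4, 7 and 4 libraries. The KO mTEChi points lie below all WT mTEChi points for Pcdh10, Pcdh9, Pcdh19 and Pcdh17 and above them for Pcdh12 and Pcdh7, and in KO mTEClo the filled and open points of Pcdh15 and Pcdh8 are far apart.

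The other 5 tested genes outside the clusters did not pass between KO and WT in mTEChi. They differed between the gates of WT mice, as did 70.1% of all genes tested. The genes above that passed in mTEChi did so too, apart from Pcdh7. Pcdh15, the tip link protein, was at 89.7 to 117 CPM (median 92.1) in WT mTEChi and at 24.7 to 44.1 CPM (median 37.8) in WT mTEClo, a log2 difference of 1.39 ± 0.19 (SE, edgeR adjusted p = 5.7e-07). Pcdh8, a neuronal activity-regulated protocadherin, was at 20.4 to 30.9 CPM in WT mTEChi and at 5.10 to 12.8 CPM in WT mTEClo (log2 1.63 ± 0.26, edgeR adjusted p = 2.8e-06). Neither gene's WT gates overlapped.

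In the KO mTEClo group these genes did not form a single level. Pcdh15 was at 57.4 and 87.7 CPM in the 2 libraries with mitochondrial counts and at 23.5 and 29.6 CPM in the 2 without. Pcdh8 was at 14.6 and 20.04 CPM in the former and at 3.28 and 3.64 CPM in the latter. The WT mTEClo range of Pcdh8 lay between these pairs, and that of Pcdh15 overlapped the lower pair. The pairs, in the same order, also differed in H2-Aa (533 and 617 CPM against 332 and 302 CPM). Cd80 was at 36.3 and 39.4 CPM against 14 and 19.9 CPM, and Aire at 7.58 and 3.13 CPM against 0 and 0.243 CPM. In WT mice H2-Aa, Cd80 and Aire were higher in mTEChi than in mTEClo (log2 0.83, 3.35 and 3.58). The part of mTEChi-like cells in this split was not tested. The term for the 6 libraries, estimated within KO mTEClo, was -1.43 ± 0.23 (SE, edgeR adjusted p = 0.0001) for Pcdh15 and -2.29 ± 0.38 (SE, edgeR adjusted p = 0.00013) for Pcdh8. It passed for 2 protocadherins with a lower level in those libraries and for 6 with a higher one, against 7.49% and 6.30% of all genes. The latter were Pcdhb17, Pcdhga1, Pcdhga2, Pcdhga6, Pcdhga12 and Pcdhgb1.

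The fitted KO effects on Pcdh15 and Pcdh8 therefore depended on how these libraries were treated. Between KO and WT in mTEChi the log2 change of Pcdh15 was -0.11 (edgeR adjusted p = 0.71), and it was 1.32 (adjusted p = 0.00029) with the term. For Pcdh8 the values were -0.02 (edgeR adjusted p = 0.97) and 2.28 (adjusted p = 0.00011). In mTEChi that term coincides with genotype, so both shifts carry over the split within KO mTEClo. They are no measure of a KO effect in mTEChi. In mTEClo, the log2 change of Pcdh15 was 0.31 (edgeR adjusted p = 0.40), and it was 0.96 (adjusted p = 0.00054) without the libraries that lack mitochondrial counts. Without the 2 KO mTEClo libraries that have mitochondrial counts it was -0.49 (adjusted p = 0.053), the opposite direction.

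Pcdh20, Pcdh18 and Pcdh1 were lower in mTEChi than in mTEClo. Pcdh20 was at 19.2 to 60.3 CPM (median 25.5) in WT mTEClo and at 4.80 to 8.76 CPM in WT mTEChi (log2 -2.23 ± 0.26, edgeR adjusted p = 1.9e-08). Pcdh18 was at 28.5 to 47.7 CPM (median 42.6) in WT mTEClo and at 8.57 to 17.1 CPM in WT mTEChi (log2 -1.73 ± 0.17, edgeR adjusted p = 2.4e-10). Pcdh1, an epithelial and airway protocadherin, was at 72.9 to 108 CPM in WT mTEClo and at 36.0 to 57.1 CPM in WT mTEChi (log2 -0.87 ± 0.11, edgeR adjusted p = 5.7e-08). In each case the WT gates did not overlap, and KO mice showed the same direction, with log2 differences of -2.90, -1.91 and -1.07.

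Pcdh1 in KO mTEChi (48.3, 39.3, 32.9 and 37.6 CPM) overlapped WT mTEChi, and its log2 change of -0.34 ± 0.15 had an edgeR adjusted p of 0.052. It passed under 18 of the alternatives run, among them RLE and upper quartile factors, DESeq2 and limma-voom.

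The clusters differed in total level and in how they followed the gate and the genotype. The summed Pcdhg level was 771 ± 55.8 CPM (SD, n = 8) in WT mTEClo, 761, 660, 970 and 924 CPM in the KO mTEClo libraries, 253 ± 26.8 CPM (SD, n = 7) in WT mTEChi and 359 ± 16.0 CPM (SD, n = 4) in KO mTEChi. The summed Pcdhb level in the same order was 234 ± 31.3, 162 ± 20.8, 46.4 ± 7.32 and 23.1 ± 1.80 CPM. The summed Pcdha level was 7.77 ± 2.01, 6.52 ± 2.48, 5.52 ± 1.9 and 2.77 ± 1.19 CPM.

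Per library, the KO mTEChi sums were 364, 337, 361 and 375 CPM for Pcdhg, all above the WT mTEChi range of 224 to 292 CPM. For Pcdhb they were 23.3, 21.3, 22.3 and 25.5 CPM, all below the WT range of 38.9 to 58.6 CPM. KO mTEChi thus had a 1.42-fold higher Pcdhg sum and a 2.01-fold lower Pcdhb sum than WT mTEChi. The Pcdhg sum also divided the KO mTEClo libraries. It was 970 and 924 CPM in the 2 without mitochondrial counts and 761 and 660 CPM in the 2 with them. WT mTEClo had 663 to 822 CPM, and 5 Pcdhg genes passed as higher for the term for the 6 libraries. These KO mTEClo pairs also differ in age and in H2-Aa. All 4 KO mTEChi libraries lack mitochondrial counts. Their Pcdhg sums were 364 and 337 CPM at 5 weeks and 361 and 375 CPM at 6 weeks. The Pcdhb sum in KO mTEClo was 167 and 186 CPM in the 2 without and 161 and 136 CPM in the 2 with. The part of this division in the mTEChi difference was not tested. These are descriptions of neighbouring genes that share a locus, with no test of the sum.

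**Figure D2:**
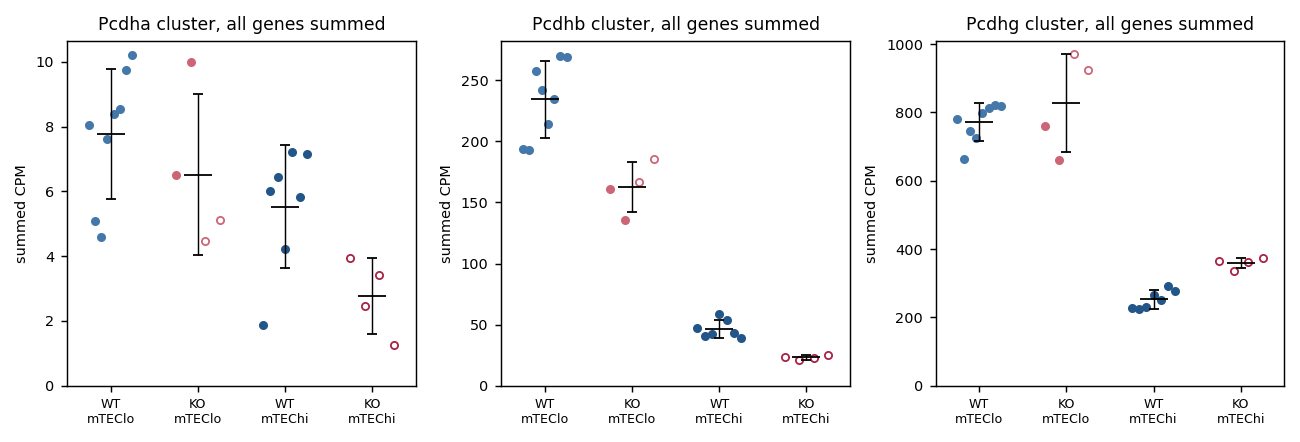
Summed CPM of all genes of the Pcdha, Pcdhb and Pcdhg clusters by group, with 1 point a library, open where no mitochondrial counts were present, and mean and SD as bars. In mTEChi the KO points lie below WT for Pcdhb and above WT for Pcdhg, and Pcdha is under 11 CPM in every library.

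All 14 tested Pcdhb genes were lower in mTEChi than in mTEClo of WT mice, against 33.4% of all genes tested. Log2 differences ran from -5.09 to -1.80. A gene that passed the filter only through mTEClo had to differ between the gates, so the 8 untested genes are given as well. Each of these (Pcdhb1, 2, 3, 5, 6, 8, 10 and 12) had a lower mean in WT mTEChi than in WT mTEClo too. Pcdhb17 was the most abundant per kb of exon not shared with another gene model, at 6.28 CPM per kb in WT mTEClo and 1.47 in WT mTEChi. Among the tested genes Pcdhb9 had the largest difference, with 175 counts over 8 WT mTEClo libraries and 3 over 7 WT mTEChi libraries, a ratio of 44.2 with an exact 95% counting interval of 14.9 to 217. The untested Pcdhb8 had 61 counts and 1, a ratio of 46.2 with an interval of 7.99 to 1860.

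Pcdhb19 had the lowest p between KO and WT in mTEChi. WT libraries had 3.23 to 8.46 CPM (median 4.34) and KO libraries 1.75, 0.409, 2.05 and 2.92 CPM, with no overlap (log2 -1.42 ± 0.36, edgeR adjusted p = 0.0015). Pcdhb14 followed, with 3.57 to 5.16 CPM (median 4.28) in WT and 1.75, 0.818, 3.08 and 1.25 CPM in KO (log2 -1.19 ± 0.35, edgeR adjusted p = 0.0053). These KO values were near the floor of 3 counts per library, which was 1.03 to 1.32 CPM in that group. Both calls held in each alternative run.

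Pcdhb17 fell from a WT range of 4.80 to 9.30 CPM to 3.07, 4.09, 3.77 and 3.34 CPM (log2 -0.91 ± 0.32, edgeR adjusted p = 0.017). Pcdhb21 had 2.14 to 3.72 CPM in WT and 0.878, 1.64, 0.685 and 1.67 CPM in KO (log2 -1.10 ± 0.38, edgeR adjusted p = 0.022). In Pcdhb17 and Pcdhb21 the groups did not overlap, but Pcdhb21 was not called without KO mTEChi replicate 1 (adjusted p = 0.063) or replicate 3 (adjusted p = 0.091). Pcdhb20 (log2 -0.93 ± 0.36, adjusted p = 0.03) and Pcdhb16 (log2 -1.06 ± 0.42, adjusted p = 0.033) overlapped between the genotypes. The call for Pcdhb20 was lost without KO mTEChi replicate 2 or 4 or WT mTEChi replicate 4 (adjusted p = 0.15, 0.073 and 0.054). That for Pcdhb16 was lost without KO mTEChi replicate 3 or 4 or WT mTEChi replicate 4 (adjusted p = 0.087, 0.12 and 0.063). With the term for the 6 libraries the log2 change of Pcdhb16 was -0.57 (adjusted p = 0.47) and that of Pcdhb20 was -1.07 (adjusted p = 0.11). With an age term the adjusted p was 0.088 for Pcdhb16 and 0.073 for Pcdhb20, and with male libraries alone it was 0.098 and 0.072. With 5-week male libraries alone the log2 change was -0.30 for Pcdhb16 and -0.91 for Pcdhb20. Pcdhb15, named after its values were seen, had 11 counts in WT mTEChi and 1 in KO mTEChi, a ratio of 5.93 with an exact 95% counting interval of 0.862 to 255. The 7 Pcdhb genes that fell are among the 8 tested from Pcdhb14 to Pcdhb21, in the downstream part of the cluster. Pcdhb22, the last gene, was not called (adjusted p = 0.06). The tested genes before Pcdhb14 had means of only 0.148 to 1.51 CPM in WT mTEChi, with log2 changes from -1.23 (Pcdhb13) to 0.40 (Pcdhb9). Position and low counts therefore cannot be told apart in these calls. The log2 change and position had a Pearson r of -0.44. Over the 14 tested genes the level per kb in WT mTEChi rose along the cluster with a Pearson r of 0.62, a description with no p.

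**Figure D3:**
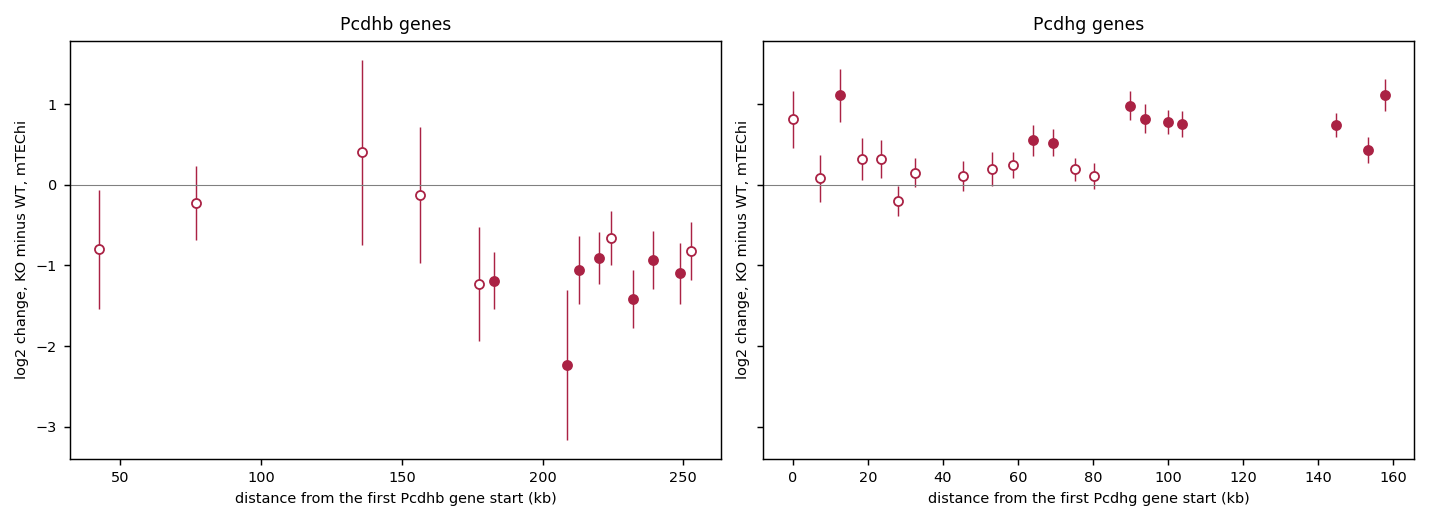
Log2 change of KO against WT in mTEChi for the tested Pcdhb and Pcdhg genes, plotted against the distance of each gene start from the first start of its cluster (kb). Whiskers are the SE and filled points passed at an edgeR adjusted p under 0.05. Filled Pcdhb points are all below 0 and filled Pcdhg points all above 0.

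All 21 tested Pcdhg genes were lower in mTEChi than in mTEClo of WT mice, with log2 differences from -2.85 to -0.75, against 33.4% of all genes. The size of the difference followed the position in the cluster. Pcdhga1, the first variable exon, was at a log2 difference of -2.37 ± 0.24, Pcdhgb4 in the middle at -1.72 ± 0.12, and the C-type genes at the downstream end, Pcdhgc3, Pcdhgc4 and Pcdhgc5, at -0.88 ± 0.12, -0.75 ± 0.12 and -1.17 ± 0.16 (SE).

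Over the 21 genes, distance along the cluster and the log2 difference between WT gates had a Pearson r of 0.91 and a Spearman rho of 0.94. In KO mice r was 0.91 and rho 0.95. Without the C-type genes r was 0.89 in WT and 0.87 in KO. These genes share libraries and a locus, so the values describe the pattern and no p is given. In the gene models each later variable exon lies within an intron of the earlier genes, and the libraries were made from total RNA without strand. Unspliced RNA of an upstream gene can be counted on a downstream exon, and its part in this pattern was not tested. The level per kb was less tied to position in WT mTEClo (r = 0.21) than in WT mTEChi (r = 0.68).

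**Figure D4:**
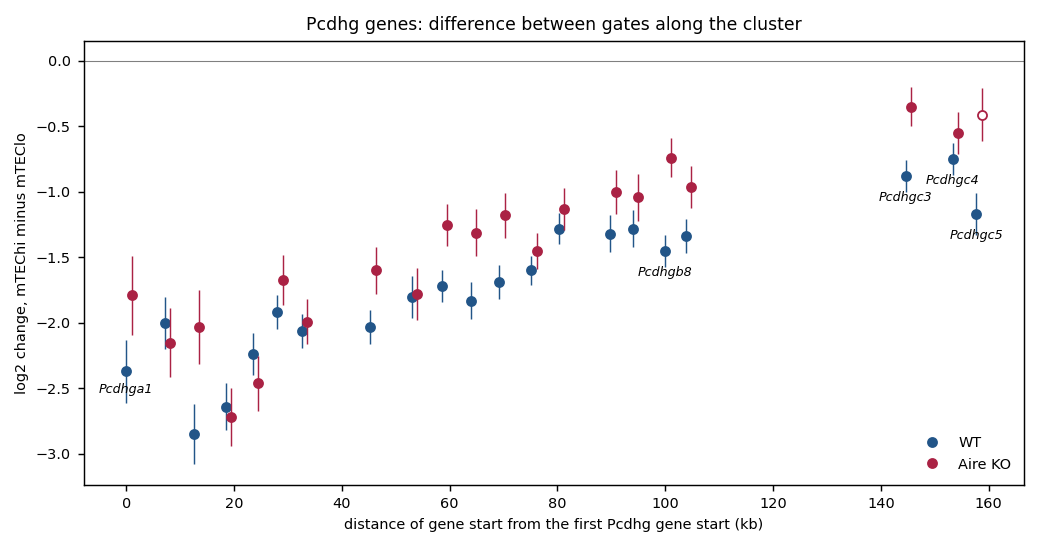
Log2 difference between mTEChi and mTEClo for the 21 tested Pcdhg genes against the distance of each gene start from that of Pcdhga1 (kb), in WT (blue) and Aire KO (red, shifted by 1 kb for legibility). Whiskers are the SE and filled points passed at an edgeR adjusted p under 0.05. The difference shrinks from the upstream to the downstream end in both genotypes.

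In KO mTEChi, Pcdhgc5 and Pcdhga3 had the largest rises of the Pcdhg genes, both at a log2 change of 1.11. The Pcdhgc5 WT libraries had 4.96 to 17.9 CPM (median 14.3) and its KO libraries 34.7, 27.0, 25.0 and 29.7 CPM (SE 0.20, edgeR adjusted p = 3.4e-05). Pcdhgb7 had 6.60 to 16.8 CPM (median 13.6) in WT and 29.0, 22.9, 22.2 and 23.8 CPM in KO (log2 0.98 ± 0.18, edgeR adjusted p = 3.3e-05). In Pcdhgc5 and Pcdhgb7 the genotypes did not overlap.

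Pcdhgb8 rose from 11.1 to 16.5 CPM in WT to 25.0, 22.1, 24.6 and 21.3 CPM in KO (log2 0.78 ± 0.15, edgeR adjusted p = 6.0e-05), and Pcdhga11 from 6.82 to 12.6 CPM to 14.5, 14.3, 21.2 and 22.1 CPM (log2 0.82 ± 0.18, edgeR adjusted p = 0.00039). The Pcdhga11 values of 14.5 and 14.3 CPM are from KO mice of 5 weeks, and the others from those of 6 weeks. With 5-week male libraries alone its log2 change was 0.32. Pcdhgc3, the C-type gene expressed widely outside neurons, had 15.0 to 21.3 CPM in WT and 38.2, 29.9, 20.5 and 31.3 CPM in KO (log2 0.74 ± 0.15, edgeR adjusted p = 0.0001), with 1 KO library inside the WT range. Per kb of unshared exon Pcdhgc3 was the highest Pcdhg gene in mTEChi, at 9.92 CPM per kb in WT and 16.5 in KO. The calls for Pcdhgb7, Pcdhgb8 and Pcdhga11 were lost with the term for the 6 libraries, at adjusted p of 0.16, 0.15 and 0.34, while those for Pcdhgc3 and Pcdhgc5 were kept. In mTEChi that term carries over the split within KO mTEClo, so neither outcome checks these differences.

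Pcdhgb6 is an example of the 11 Pcdhg genes that did not pass. It had 15.0 to 26.8 CPM in WT mTEChi and 22.8, 15.1, 24.3 and 23.4 CPM in KO (log2 0.11 ± 0.16, edgeR adjusted p = 0.58). Pcdhga1, named for its place at the start of the cluster after its values were seen, at a log2 change of 0.81 ± 0.35, missed the threshold with an edgeR adjusted p of 0.051.

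Not every Pcdhg gene can be read. Pcdhga10 has no exon bases of its own in the annotation, since its exons are all covered by other gene models, and it had 0 counts in all 23 libraries. Counts of the other Pcdha and Pcdhg genes therefore rest on their variable exons. Antisense or overlapping models complicate some of these. Gm26672, a gene model that overlaps Pcdhg genes on the other strand, was at 7.50 to 17.4 CPM in WT mTEChi and at 20.6, 19.6, 20.2 and 20.9 CPM in KO mTEChi (log2 0.68 ± 0.23, edgeR adjusted p = 0.014). Without strand its reads and those of the Pcdhg genes it overlaps cannot be told apart.

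The Pcdha genes were at the edge of detection. Pcdhac2 had the highest level per kb in WT mTEChi at 0.818 CPM per kb, with 50 counts over 7 libraries. Its libraries ranged from 0 to 5.35 CPM (median 2.50) in WT mTEChi, and KO mTEChi had 0.878, 0, 0.685 and 0 CPM, which is 4 counts in all. Pcdha12 had 0.357 to 2.40 CPM in WT mTEChi and 1.75, 1.23, 0.685 and 0.418 CPM in KO mTEChi. Pcdhac1 had 18 counts in WT mTEChi and 3 in KO mTEChi, a ratio of 3.23 with an exact 95% counting interval of 0.944 to 17.1. Pcdha1 had no count in any library. The name Pcdha11 was carried by a pair of gene identifiers, both below the filter.

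In mTEClo, 9 of the 46 protocadherins differed between KO and WT, with 4 lower and 5 higher, against 9.69% lower and 12.0% higher among all genes (21.7% in either direction). Outside the clusters, Pcdh12 was at 4.33, 4.38, 1.49 and 3.88 CPM in KO against 0 to 2.30 CPM in WT (log2 1.83 ± 0.41, edgeR adjusted p = 0.0017). Pcdh20 was at 51.4, 31.3, 54.5 and 61.4 CPM in KO and at 19.2 to 60.3 CPM in WT, with overlap (log2 0.84 ± 0.25, edgeR adjusted p = 0.018). Pcdh20 no longer passed without KO mTEClo replicate 3 or replicate 4, at adjusted p of 0.054 and 0.077. It also missed with an age term (log2 0.92, adjusted p = 0.17) and without the 6 libraries that lack mitochondrial counts (log2 0.57, adjusted p = 0.26).

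Among the Pcdhb genes 3 of 14 were lower in KO mTEClo. Pcdhb20 was at 10.8, 6.26, 9.23 and 9.71 CPM in KO, below the whole WT range of 13.4 to 23.7 CPM (log2 -0.99 ± 0.23, edgeR adjusted p = 0.0025). Pcdhb16 was at 22.7, 10.6, 14.3 and 9.71 CPM in KO and at 17.2 to 39.3 CPM in WT (log2 -0.93 ± 0.25, edgeR adjusted p = 0.0089). Pcdhb19 was at 20.6, 18.8, 22.3 and 19.2 CPM in KO and at 20.7 to 37.8 CPM in WT (log2 -0.56 ± 0.19, edgeR adjusted p = 0.038). The call for Pcdhb19 was lost without any 1 of 7 libraries (WT mTEClo replicates 3, 4 and 6 and each of the 4 KO mTEClo libraries), at adjusted p between 0.054 and 0.11. With an age term none of the 3 was called, at adjusted p of 0.11 (Pcdhb20), 0.21 (Pcdhb16) and 0.1 (Pcdhb19). Pcdhb16 (log2 -0.66, adjusted p = 0.15) and Pcdhb19 (log2 -0.60, adjusted p = 0.088) also missed without the 6 libraries that lack mitochondrial counts.

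Among the Pcdhg genes 3 of 21 were higher in KO mTEClo and 1 lower. Pcdhgb7 had 43.8, 35.1, 56.9 and 55.6 CPM in KO and 26.5 to 39.6 CPM in WT (log2 0.66 ± 0.15, edgeR adjusted p = 0.0026). Pcdhga11 had 32.5, 28.8, 40.5 and 44.4 CPM in KO and 18.4 to 32.4 CPM in WT (log2 0.57 ± 0.15, edgeR adjusted p = 0.0084), a call lost without KO mTEClo replicate 4 (adjusted p = 0.056). With an age term the log2 changes of Pcdhgb7 and Pcdhga11 were 0.27 and 0.08 (adjusted p = 0.45 and 0.85). Without the 6 libraries that lack mitochondrial counts they were 0.37 and 0.30 (adjusted p = 0.18 and 0.27). The others, named because they complete the count, were Pcdhga4 (log2 0.54) and Pcdhgb2 (log2 -0.45). In this gate the number of protocadherins called was 5 without KO mTEClo replicate 3 and 4 without KO mTEClo replicate 4. Over all genes the calls were 1379 lower and 1747 higher of 19664 without replicate 3, and 1879 and 1940 of 19671 without replicate 4. With a term for age 1 protocadherin was called, and calls over all genes were fewer too, at 679 lower and 825 higher of 19310.

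Of the 46 protocadherins, 45 differed between the gates of WT mice, 39 lower and 6 higher in mTEChi, against 33.4% and 36.7% of all genes (70.1% in either direction). Without Aire 38 were lower and 7 higher, against 28.0% and 29.2% (57.2% in either direction). The genes higher in mTEChi in WT were Pcdh8, Pcdh9, Pcdh10, Pcdh12, Pcdh15 and Pcdh17. In KO Pcdh7 joined them, at a log2 difference of 0.88 ± 0.08 (SE, edgeR adjusted p = 1.1e-10). Pcdhgc5 did not pass between the KO gates (log2 -0.41 ± 0.20, edgeR adjusted p = 0.084), and Pcdhgc3 passed narrowly at an adjusted p of 0.049. The Pcdhgc3 call was lost under many alternatives, among them no filter (adjusted p = 0.083), RLE factors (0.055), DESeq2 (0.057) and the replicate number as a block (0.05). The Pcdh17 call between the KO gates (log2 0.28, edgeR adjusted p = 0.026) was lost with no filter (0.088), with male libraries alone (0.09) and without KO mTEChi replicate 3 (0.11), among others.

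Whether Aire loss acted differently in mTEChi and mTEClo was tested as an interaction. It passed for 6 protocadherins, 2 lower and 4 higher, against 14.0% and 10.8% of all genes (24.8% in either direction). Pcdh10 fell in mTEChi and not in mTEClo, with a difference of -1.71 ± 0.39 (SE, edgeR adjusted p = 0.0016), and Pcdh19 followed the same pattern with -1.29 ± 0.23 (SE, edgeR adjusted p = 0.00013). Pcdh7 had a difference of 0.80 ± 0.099 (SE, edgeR adjusted p = 7.7e-07). Pcdhgb8 had 0.71 ± 0.19 (edgeR adjusted p = 0.0058), Pcdhgc5 0.77 ± 0.26 (adjusted p = 0.029) and Pcdhgc3 0.53 ± 0.19 (adjusted p = 0.042). The call for Pcdhgc3 was lost under RLE and upper quartile factors, DESeq2, the replicate block (adjusted p = 0.069) and many of the fits without 1 library, KO mTEChi replicate 1 among them (adjusted p = 0.14). Pcdhgc5 missed without KO mTEChi replicate 1 (adjusted p = 0.072) or KO mTEClo replicate 2 (adjusted p = 0.051), with the term for the 6 libraries (adjusted p = 0.06), without the 2 KO mTEClo libraries that have mitochondrial counts (adjusted p = 0.065), with upper quartile factors (adjusted p = 0.051) and with male libraries alone (adjusted p = 0.092). Pcdhgb8 missed with male libraries alone (adjusted p = 0.065). None of the Pcdhb genes passed this test in the main fit, where their median difference was -0.49. With limma-voom Pcdhb14 (log2 -1.05, adjusted p = 0.023) and Pcdhb19 (log2 -0.98, adjusted p = 0.045) passed. Pcdhb14 and Pcdhb17 passed without the 2 KO mTEClo libraries that have mitochondrial counts (adjusted p = 0.032 and 0.025). Pcdhb14 also passed without KO mTEChi replicate 3 (adjusted p = 0.017). At Pcdh12 the effect was alike in size in both gates, and the difference of -0.24 ± 0.37 did not pass (edgeR adjusted p = 0.7).

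Genes that act on or with protocadherins were counted in lists, each to be read against the 28.0% of all genes lower and 25.7% higher in KO mTEChi. Of 17 genes for promoter choice and silencing at the clusters (CTCF, cohesin, its loader and release factors, DNA and histone methylation), 8 were lower and 2 higher in KO mTEChi, with a median log2 change of -0.19 against -0.01 over all genes. Smchd1, which is needed to silence clustered protocadherins, was at 116 ± 16.4 CPM (SD, n = 7) in WT and 75.2 ± 8.76 CPM (SD, n = 4) in KO (log2 -0.60 ± 0.10, edgeR adjusted p = 2.1e-05). Dnmt3b, the de novo methyltransferase of their promoters, was at 19.6 ± 3.56 and 9.60 ± 2.75 CPM (log2 -1.07 ± 0.20, edgeR adjusted p = 4.1e-05). The neuronal gene repressor Rest was at 54.1 ± 6.52 and 35.3 ± 4.36 CPM (log2 -0.61 ± 0.12, edgeR adjusted p = 6.4e-05). Ctcf did not pass, with a log2 change of 0.07 ± 0.08.

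Of 14 genes of the WAVE complex and FAK family kinases, which bind protocadherin tails, 6 were higher and 2 lower in KO mTEChi, with a median of 0.06. Ptk2b was at 279 ± 20.2 CPM in WT mTEChi and at 594 ± 49.7 CPM in KO (log2 1.07 ± 0.08, edgeR adjusted p = 1.0e-11). Cyfip2, a WAVE subunit, was at 194 ± 10.0 and 379 ± 25.6 CPM, and Wasf2 at 209 ± 26.8 and 316 ± 34.4 CPM. Of 10 tested hair cell partners of Pcdh15, 5 were lower and 2 higher. The scaffold Ush1c was at 38.4 ± 9.42 CPM in WT mTEChi and at 5.04 ± 1.21 CPM in KO, Adgrv1 at 30.1 ± 8.52 and 4.11 ± 0.952 CPM, and Whrn at 72.8 ± 13.1 and 171 ± 18.9 CPM. Cdh23, the tip link partner of Pcdh15, did not pass (log2 -0.06 ± 0.21), like Pcdh15 itself.

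Other cadherins moved in both directions in KO mTEChi, where 28.0% of all genes were lower and 25.7% higher. Of 23 tested classical cadherins and catenins 10 were lower and 4 higher, of 9 desmosomal cadherins 3 were lower and none higher, and of 20 large and atypical cadherins 8 were lower and 5 higher. Medians were -0.03, -0.16 and -0.21. Among them Cdh6 was at 9.63 ± 3.57 CPM in WT mTEChi and at 0.821 ± 0.364 CPM in KO, Cdh8 at 36.1 ± 8.10 and 111 ± 19.2 CPM and Ctnnd2, a neuronal catenin, at 135 ± 13.8 and 277 ± 55.2 CPM. Dsg3, a desmosomal cadherin of stratified epithelium, was at 25.5 ± 5.55 and 13.1 ± 5.06 CPM, Dsc1 at 11.7 ± 3.25 and 5.15 ± 3.65 CPM and Dsc2 at 203 ± 33.8 and 139 ± 20.8 CPM. Fat4 was at 60.9 ± 7.96 and 18.7 ± 6.05 CPM, Celsr3 at 26.0 ± 3.5 and 66.4 ± 3.15 CPM and Clstn3 at 22.6 ± 6.43 and 2.35 ± 0.965 CPM.

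The markers of other cells moved with the groups as well, and their part in the results was not tested. The counts stand beside 28.0% of all genes lower and 25.7% higher in KO mTEChi. In KO mTEChi 8 of 11 tested genes of neurons and glia were lower and 1 higher, with a summed level of 383 to 412 CPM in WT and 378 to 427 CPM in KO. Gfap was at 10.4 ± 3.94 CPM in WT mTEChi and at 0.884 ± 0.346 CPM in KO. Of 9 tested fibroblast genes 5 were lower and 1 higher, with a summed level of 332 to 498 CPM in WT and 261 to 286 CPM in KO, and in mTEClo it was 536 to 687 CPM in WT and 357 to 420 CPM in KO. Of 7 tested thymocyte genes 6 were lower, with sums of 91.0 to 126 CPM in WT and 45.5 to 59.3 CPM in KO. Of 6 tested B cell genes 1 was lower and 3 higher, with sums of 115 to 143 CPM and 206 to 291 CPM. Of 9 tested dendritic cell and macrophage genes 5 were lower and 3 higher, with sums of 413 to 482 CPM and 561 to 618 CPM, and Siglech was at 0 in KO. The cortical list (4 lower and 4 higher of 10) had 1060 to 1190 CPM in WT mTEChi and 1410 to 1590 CPM in KO, and the medullary list, which includes Aire (3 lower and 1 higher of 12), 3310 to 3780 CPM and 2590 to 3110 CPM. Of 10 neuroendocrine-like mTEC genes 5 were lower and 2 higher, with sums of 349 to 447 CPM and 392 to 503 CPM, and Scg2 was at 0 in KO mTEChi.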

How the data were processed

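Bulk RNA libraries of sorted mTECs were analysed from the table of raw read counts per Ensembl gene that the authors deposited (HTSeq 0.11.2 is named for counting in the submitters' processing notes, with fastp 0.20.0, STAR 2.7.3a, SAMtools 1.9 and Picard 2.21.1, and the build mm10). The authors also deposited a normalized signal table, which holds each count divided by 1 factor per library for 20236 genes. It held 48 protocadherins and was used only for an alternative scaling of cluster levels. Per the labels' protocols the libraries were made from total RNA with oligo dT and random-type primers, with no mark of strand.

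Counts were tested with the quasi-likelihood test of edgeR 4.0.16 in R 4.3.3 after filterByExpr with a minimum count of 10 and TMM factors, in a model of group and sex over all 23 libraries. A call is a Benjamini-Hochberg adjusted p under 0.05 over 19310 genes, and the SE is the log2 change divided by the root of F. CPM use TMM library sizes. Totals of 1602125 to 3938588 counts put the floor of 3 counts at 0.728 to 1.91 CPM per library. Levels per kb use exon bases shared with no other gene of GENCODE M21. The test was checked on simulated data.

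The protocadherins, the gene lists and the cell type markers were chosen with earlier results of these data known. Named with values are the tested genes outside the clusters, up to 4 of each cluster with the smallest p in mTEChi and up to 2 in mTEClo, the 3 highest per kb in WT mTEChi, those that passed the interaction, and up to 3 per list. The lists were promoter choice and silencing, the WAVE complex and FAK kinases, tip link partners, classical, desmosomal and atypical cadherins, and markers of medullary, cortical and neuroendocrine-like thymic epithelium, fibroblasts, endothelium, thymocytes, B cells, dendritic cells and macrophages, and neurons and glia.

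Same-numbered libraries of KO mTEClo and KO mTEChi deviated together over genes (r of 0.164, 0.197, 0.139 and 0.222). In both groups replicates 1 and 2 are of 5 weeks and replicates 3 and 4 of 6 weeks. Pairing by number and a shared effect of age therefore cannot be told apart, and the labels do not say what the number marks. For other pairs of groups r was -0.179 to 0.098. Alternatives were RLE and upper quartile factors, no filter, DESeq2 1.42.0, limma-voom (limma 3.58.1), stricter thresholds, no sex term, an age term, male and 5-week male libraries alone, a replicate block, each library left out, and, chosen after seeing the data, 3 treatments of the libraries without mitochondrial counts and the Pcdhg positions without C-type genes.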

Additional observations from a re-analysis of the deposited data

Results flagged for a closer look

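The KO effect differed between mTEChi and mTEClo for 6 protocadherins by the interaction term of edgeR. The log2 difference was -1.71 for Pcdh10, -1.29 for Pcdh19, 0.80 for Pcdh7, 0.77 for Pcdhgc5, 0.71 for Pcdhgb8 and 0.53 for Pcdhgc3.

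In 104 group and gene combinations checked for a single library far from the rest of its group, 4 had one, where chance alone gives about 1 in 20. Pcdh17 was at 162 CPM in KO mTEClo replicate 2, with the next library at 134 CPM. Pcdh17 was at 154 CPM in KO mTEChi replicate 1, below the next at 173 CPM. Pcdha12 was at 3.67 CPM in WT mTEClo replicate 4, above the next at 1.68 CPM. Pcdhgb6 was at 15.1 CPM in KO mTEChi replicate 2, below the next at 22.8 CPM.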

How the results depend on the processing

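The number of protocadherins called between KO and WT in mTEChi was 23, and it was 15 with a term for the 6 libraries, 14 at an adjusted p under 0.01 and 11 with a change of over 2-fold as well. In mTEClo it was 9, and it was 1 with an age term, 1 with 5-week male libraries alone, 5 at an adjusted p under 0.01 and 1 with a change of over 2-fold. For the interaction it was 6, and it was 10 with an age term, 3 with male libraries alone, 3 with 5-week male libraries alone and 2 with a change of over 2-fold. The 5-week male fits have 1 WT mTEClo library (replicate 6), which is assumed to vary like the other groups, so their losses in mTEClo and in the interaction come from an arm of 1. Leaving out each library in turn gave 18 to 26 in mTEChi, 4 to 11 in mTEClo, 44 to 46 between the WT gates, 43 to 47 between the KO gates and 4 to 7 for the interaction. With the replicate block the counts were 21, 10, 45, 44 and 6 in that order, the Pcdhgc3 interaction was lost (adjusted p = 0.069), and Pcdh9 (adjusted p = 0.056) and Pcdhb16 (adjusted p = 0.052) were no longer called in mTEChi. Directions turned for Pcdh15 in KO against WT mTEChi (log2 1.32 with the term for the 6 libraries) and for Pcdh8. The Pcdh8 values were 2.28 with that term in mTEChi, -1.17 in mTEClo without the 2 KO libraries that have mitochondrial counts, and 1.16 for the interaction under either. The cause was not tested, and in mTEChi the term is set by the KO mTEClo libraries alone. Without TMM factors the KO mTEChi sums were 21.2 CPM for Pcdhb and 330 CPM for Pcdhg. Over all genes, 56.3% of interaction calls were lower, against 64.3% with RLE factors, 68.7% with upper quartile factors and 65.7% with DESeq2, and upper quartile factors moved the median log2 change in mTEChi to -0.12. The fit without the 6 libraries leaves no KO mTEChi library and gives no value there. Of the alternatives for 115 named gene results, 3986 kept direction and side of the threshold, 170 lost a call, 43 gained one and 5 turned direction with a call, and 97 more changed sign without a call on either side. The Pearson r of Pcdhg position and gate difference stayed between 0.83 and 0.92. Depth limits the Pcdha genes and the low Pcdhb genes of KO mTEChi.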
